A study of Mus musculus with 6 samples.

Results

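The transcription factors of the primitive streak and mesendoderm described here are T, Mixl1, Eomes, Gsc, Mesp1, Lhx1, Foxa2, Hhex and Evx1, 9 genes of the 52636 in the deposited table of counts, matched by their symbols. Whole-transcriptome RNA sequencing measured them in embryoid bodies (EBs), aggregates in which mouse embryonic stem cells of the line E14 begin to differentiate. The groups were 3 samples of the wild type (WT) parental line and 3 samples of a Tnfaip2-/- line made with CRISPR-Cas9. Both were kept for 3 days in hanging drops and then differentiated for 3 days on gelatin, in a medium whose listed components no longer include leukemia inhibitory factor, and genotype was the only labelled difference. The Tnfaip2-/- line is 1 clone, and effects of the clone and of the genotype cannot be told apart. The study describes the replicates as biological, and p-values measure the spread between these samples of each line. The totals were 22987433, 22489903 and 23804489 counts in WT EBs and 22480962, 21765931 and 21986960 counts in Tnfaip2-/- EBs. Levels are given as CPM, counts scaled to these totals.

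In the gastrulating mouse embryo, Nodal and Wnt signals in the posterior epiblast switch on T-box and homeobox factors, and cells that pass through the streak become mesoderm or definitive endoderm. T, Mixl1, Evx1 and Mesp1 are known from the streak and the mesoderm leaving it, Eomes from both mesoderm and endoderm, and Gsc, Lhx1, Foxa2 and Hhex from the anterior streak, the node and the anterior endoderm. Several of these factors are also used in the visceral endoderm, an extraembryonic tissue.

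The targeted gene was measured as a check of the labels. For Tnfaip2, WT replicates 1 to 3 gave 7, 4 and 7 counts and the knockout replicates 0, 2 and 2. Every knockout sample lay below every WT sample, at counts too low for the expression filter. The ratio of summed counts was 4.3, with a 95% counting interval of 1.42 to 17.5. Groups did not overlap in 69.7% of the genes tested, so these counts alone do not settle the labels. Gene counts do not show the edited allele, and an antisense gene, Gm40578, shares 6.3% of the exon bases.

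The start regions of T, Evx1, Eomes and Hhex are shown, picked with the values known, because T and Evx1 fell far, Eomes fell little and Hhex rose. Of the 9 members, 8 had windows in the RefSeq promoter table (GRCm38.p6), which holds 250 bases before and 50 bases after each RefSeq start, and Foxa2 had several, giving 10 windows. Gene positions in the text are GENCODE's. Both sources start T and Evx1 at the same base, whereas the RefSeq start lies 23 bases upstream of the GENCODE start for Eomes and 31 bases downstream for Hhex. The windows are chr17:8434173-8434472 for T, chr6:52313248-52313547 for Evx1, chr9:118477939-118478238 for Eomes and chr19:37434591-37434890 for Hhex, all on the forward strand. Capitals mark exact matches on either strand to the core letters of the TCF/LEF motif (CTTTGA), the T-box motif (GGTGTGA), the SMAD motif (CAGAC), the FOXH1 motif (AATNCACA), the FOXA motif (TGTTTAC) and a bicoid-type homeodomain motif (TAATCC), none of which overlapped another in these windows.
T: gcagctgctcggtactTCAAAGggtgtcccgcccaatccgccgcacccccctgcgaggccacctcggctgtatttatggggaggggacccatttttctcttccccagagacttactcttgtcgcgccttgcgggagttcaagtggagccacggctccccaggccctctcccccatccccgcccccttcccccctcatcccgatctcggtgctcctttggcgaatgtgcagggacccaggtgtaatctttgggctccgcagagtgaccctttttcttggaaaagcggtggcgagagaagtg
Evx1: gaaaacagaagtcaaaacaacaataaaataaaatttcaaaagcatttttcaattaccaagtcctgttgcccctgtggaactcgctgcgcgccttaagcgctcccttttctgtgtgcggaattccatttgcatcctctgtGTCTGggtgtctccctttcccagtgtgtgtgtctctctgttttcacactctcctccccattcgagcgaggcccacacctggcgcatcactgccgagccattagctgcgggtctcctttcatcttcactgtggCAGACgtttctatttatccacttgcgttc
Eomes: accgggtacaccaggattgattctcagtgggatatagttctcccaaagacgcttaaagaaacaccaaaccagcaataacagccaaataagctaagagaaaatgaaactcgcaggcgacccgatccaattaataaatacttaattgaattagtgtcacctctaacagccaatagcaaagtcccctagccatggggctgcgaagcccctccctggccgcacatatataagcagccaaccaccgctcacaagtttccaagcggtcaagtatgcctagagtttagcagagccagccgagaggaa
Hhex: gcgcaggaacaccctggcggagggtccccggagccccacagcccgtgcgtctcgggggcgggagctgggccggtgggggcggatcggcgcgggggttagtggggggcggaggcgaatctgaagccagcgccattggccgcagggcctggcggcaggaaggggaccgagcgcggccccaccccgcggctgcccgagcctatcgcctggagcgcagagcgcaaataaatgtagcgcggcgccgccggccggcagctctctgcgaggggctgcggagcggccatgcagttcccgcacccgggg
The T window held a TCF/LEF match that began 234 bases before the start. The Evx1 window held SMAD matches that began 111 bases before and 21 bases after the start. No searched letters were found in the Eomes and Hhex windows. Among the 10 windows of members, 3 held TCF/LEF letters (T, Mesp1 and 1 of Foxa2), against 16.0% of all 32851 windows. SMAD letters were in 4 (Evx1, Lhx1, Mesp1 and 1 of Foxa2), against 49.6%, and T-box letters in 1 (Mesp1), against 3.98%. The RefSeq start of Mesp1 lies 198 bases inside the GENCODE gene, so its SMAD and TCF/LEF letters, although before that start, are within the gene as GENCODE places it. The Foxa2 window with TCF/LEF letters has a RefSeq start 1505 bases inside the GENCODE gene, and the letters begin 15 bases after it. Whether the letters go with the size of the change was not tested. FOXH1, FOXA and bicoid-type letters, found in 3.60%, 3.65% and 7.06% of all windows, were in 0 of the 10. A match is a description of letters and not of a bound site.

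All 9 members passed the expression filter, and in each of them the groups did not overlap. Over the 17849 genes tested, 69.7% had groups that did not overlap, and edgeR's quasi-likelihood test called 67.7% at an adjusted p threshold of 0.05, so that a call alone is common in this comparison. Of the members, 8 were lower in Tnfaip2-/- EBs, against 33.7% of genes tested, and 1, Hhex, was higher, against 34.0%. At least 2-fold lower were 7 members, against 4.51% of genes tested, and at least 8-fold lower were 5 members, against 0.347%, both by fitted values (counting intervals reach below 2 for Foxa2 and below 8 for Mesp1). The median log2 fold change of the members was -3.74, beside 0.00 over all genes tested. In bulk RNA, fewer cells of a type and less RNA per cell cannot be told apart, and this holds for each value that follows.

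T (ENSMUSG00000062327, chr17:8434423-8442496, forward strand) encodes Brachyury, the T-box factor of the streak, nascent mesoderm and notochord. It had 774, 732 and 866 counts in WT EBs, or 33.7, 32.5 and 36.4 CPM. Tnfaip2-/- EBs had 5, 3 and 1 counts, or 0.222, 0.138 and 0.0455 CPM. All WT samples were high and close together, and all knockout samples were near the floor of 3 counts. The ratio of summed counts was 252, with a 95% counting interval of 133 to 552, and the fitted log2 fold change was -7.95 (adjusted p = 3.06e-38 in edgeR's quasi-likelihood test). Ordered from the most negative log2 fold change, T was gene 3 of the 17849.

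Eomes (ENSMUSG00000032446, chr9:118478212-118486132, forward strand) encodes the other T-box factor of the group, which acts in mesoderm and endoderm formation. Its levels were 28.2, 29.8 and 26.2 CPM in WT EBs and 18.9, 16.9 and 20.0 CPM in Tnfaip2-/- EBs. The lowest WT sample was still above the highest knockout sample. The means were 28.1 ± 1.84 and 18.6 ± 1.58 CPM (SD, n = 3), and the log2 fold change was -0.62 (SE 0.0609, adjusted p = 2.24e-12 in edgeR's quasi-likelihood test). It no longer passed when tested against a fold change of 1.5. An antisense gene, Gm33460, shares 2.8% of the exon bases of Eomes and had 9, 5 and 7 counts in WT and 9, 5 and 16 in knockout EBs. T and Eomes thus differed in the size of their log2 fold changes, -7.95 and -0.62, and the difference between the genes was not tested.

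Mixl1 (ENSMUSG00000026497, chr1:180693043-180697034, reverse strand), a paired-type homeobox factor of the streak, had 174, 155 and 170 counts in WT EBs and 17, 4 and 15 counts in Tnfaip2-/- EBs. In CPM these were 7.57, 6.89 and 7.14 against 0.756, 0.184 and 0.682. Replicate 2 of the knockout was the lowest, and every knockout sample was far below the WT range. The ratio of summed counts was 13.3 (95% counting interval 9.44 to 19.1; log2 fold change -3.74, adjusted p = 3.7e-22 in edgeR's quasi-likelihood test).

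Evx1 (ENSMUSG00000005503, chr6:52313498-52318378, forward strand), an even-skipped homeobox factor of the posterior streak, had 4.74, 5.07 and 5 CPM in WT EBs. In Tnfaip2-/- EBs it had 5, 4 and 6 counts, or 0.222, 0.184 and 0.273 CPM. WT samples were tightly grouped, and the knockout samples lay slightly above the floor. The log2 fold change was -4.44 (adjusted p = 8.91e-22 in edgeR's quasi-likelihood test), and the interval of the count ratio ran from 13 to 39.4. Evx1os, transcribed from the opposite strand, shares 73 exon bases with Evx1, 2.5% of its exon length. It had 44, 40 and 36 counts in WT EBs and 1, 3 and 3 counts in Tnfaip2-/- EBs. The library kit does not mark strand, and reads from the shared bases cannot be told apart.

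Mesp1 (ENSMUSG00000030544, chr7:79792241-79793788, reverse strand), a bHLH factor of the earliest mesoderm including cardiac precursors, had 32, 26 and 16 counts in WT EBs. Tnfaip2-/- EBs had 0, 2 and 2 counts. WT replicate 3 was the lowest WT sample, at 0.672 CPM beside 1.39 and 1.16, and still above every knockout sample. The ratio of summed counts was 17.7, and its interval was wide, from 6.62 to 66.6, because of the 4 counts in the knockout (adjusted p = 1.08e-09 in edgeR's quasi-likelihood test).

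Among the anterior factors, Gsc (ENSMUSG00000021095, chr12:104471209-104473330, reverse strand), a homeobox gene of the organizer, had 53, 52 and 45 counts in WT EBs and 4, 7 and 12 counts in Tnfaip2-/- EBs. The knockout samples were all far below WT. The ratio of summed counts was 6.23, with an interval of 4 to 10.1 (log2 fold change -2.65, adjusted p = 9.47e-12 in edgeR's quasi-likelihood test).

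Lhx1 (ENSMUSG00000018698, chr11:84518284-84525535, reverse strand), a LIM-homeobox factor of the anterior streak and its mesendoderm, had 50, 63 and 65 counts in WT EBs and 4, 4 and 1 counts in Tnfaip2-/- EBs. No knockout sample came near the lowest WT sample. The ratio of summed counts was 18.9, with an interval of 9.74 to 42 (log2 fold change -4.21, adjusted p = 5.47e-16 in edgeR's quasi-likelihood test).

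Foxa2 (ENSMUSG00000037025, chr2:148042877-148046969, reverse strand), a forkhead factor of the node and endoderm, had 2.18, 2.62 and 2.56 CPM in WT EBs and 1.2, 1.24 and 0.91 CPM in Tnfaip2-/- EBs. Every knockout sample was below every WT sample. The mean was 2.45 ± 0.243 CPM in WT and 1.12 ± 0.181 CPM in knockout EBs (SD, n = 3), and the log2 fold change was -1.16 (ratio of summed counts 2.2, 95% counting interval 1.66 to 2.93, adjusted p = 1.07e-06 in edgeR's quasi-likelihood test).

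Hhex (ENSMUSG00000024986, chr19:37434810-37440731, forward strand), a homeobox factor of anterior endoderm, moved the other way. It had 4.48, 4.22 and 4.49 CPM in WT EBs and 7.43, 7.81 and 7.19 CPM in Tnfaip2-/- EBs. All knockout samples were higher than all WT samples. The means were 4.4 ± 0.152 and 7.47 ± 0.315 CPM (SD, n = 3), and the log2 fold change was 0.74 (ratio of summed counts, WT over knockout, 0.589, 95% counting interval 0.509 to 0.681, adjusted p = 3.62e-08 in edgeR's quasi-likelihood test). As for Eomes, the call was lost against a fold change of 1.5.

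**Figure D1:**
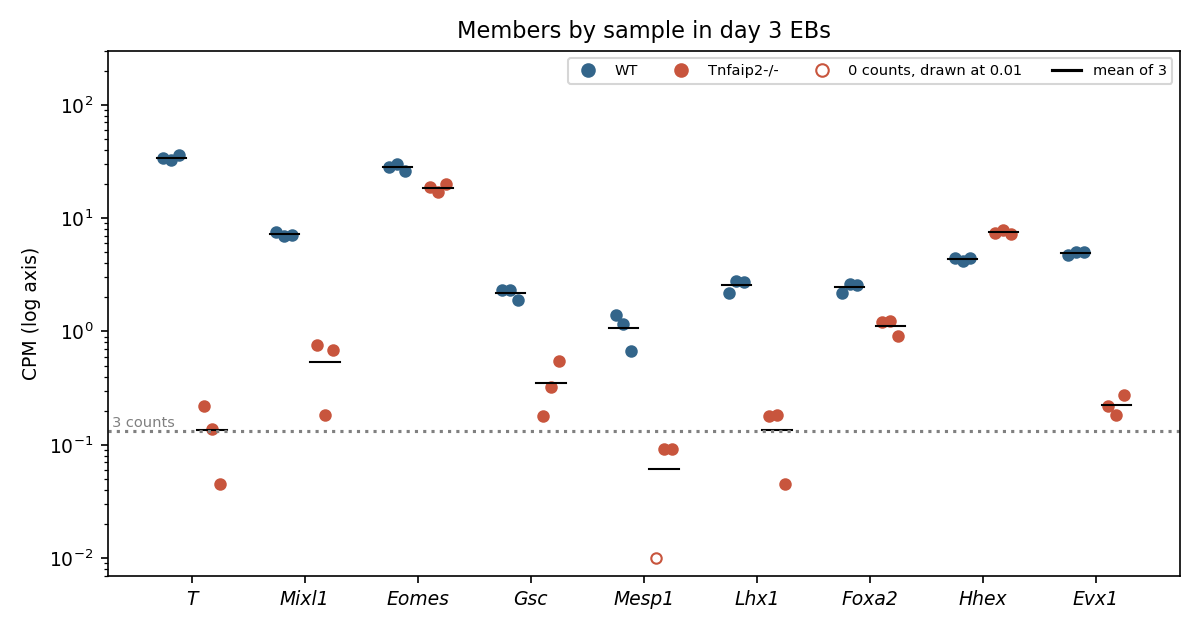
Level of each member in each of the 6 samples in CPM on a log axis, with WT in blue, Tnfaip2-/- in red and the mean of 3 as a bar; the dotted line is the level of 3 counts, and the open point is a sample with 0 counts drawn at 0.01. T falls from 34.2 to 0.135 CPM in the mean, Eomes from 28.1 to 18.6, and Hhex rises.

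**Figure D2:**
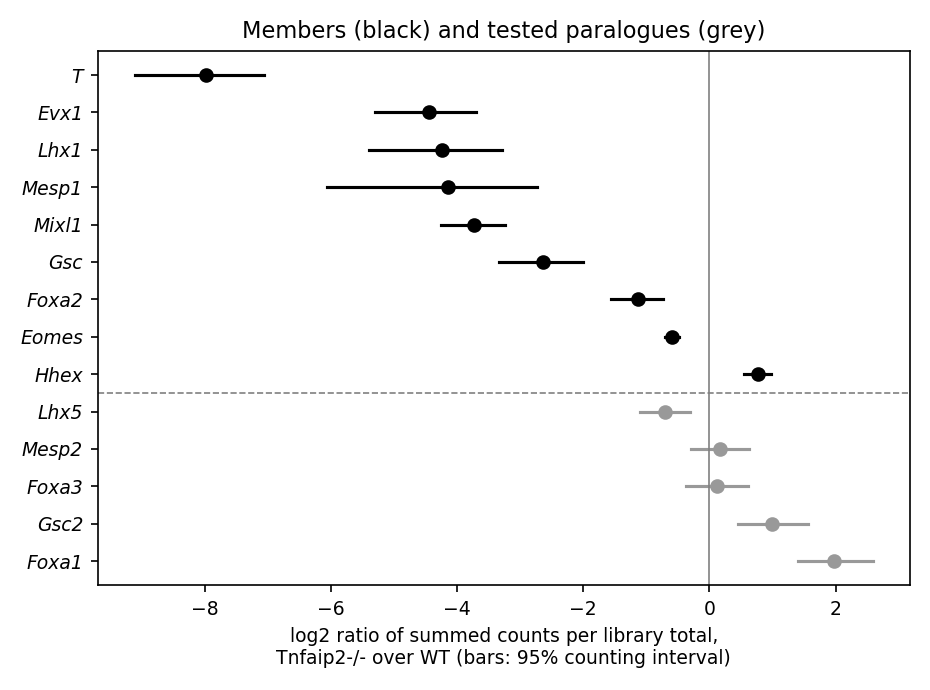
Log2 ratio of summed counts, each divided by the summed library totals, Tnfaip2-/- over WT, for the 9 members in black and their 5 tested paralogues in grey; bars are 95% counting intervals and do not include the spread between replicates. Of the members, 8 lie left of 0 and Hhex lies right.

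Levels of different genes were compared per kb of exon. In WT EBs the order was T (14.8 CPM per kb), Eomes (6.75), Mixl1 (3.14), Evx1 (1.72), Gsc (1.71), Foxa2 (1.04), Hhex (0.87), Mesp1 (0.842) and Lhx1 (0.631). The sample ranges of Evx1 and Gsc overlapped, as did those of Hhex and Mesp1 and of Mesp1 and Lhx1, and the other neighbours were separate. In Tnfaip2-/- EBs Eomes led at 4.48 CPM per kb, followed by Hhex at 1.48, and each was separate from the next. From Foxa2 (0.471) down to Lhx1 (0.0333) every neighbour overlapped the next in range, so that the order of neighbours is not resolved there. T, the highest in WT EBs, lay in Tnfaip2-/- EBs below the ranges of Eomes, Hhex, Foxa2 and Gsc and overlapped those of Mixl1, Evx1, Mesp1 and Lhx1. Summed over the members, the level fell from 31.5 ± 0.0907 to 7.16 ± 0.421 CPM per kb (SD, n = 3). T made up 46.9% of that sum in WT and 0.816% in knockout EBs, whereas Eomes rose from 21.5% to 62.6% of it and Hhex from 2.77% to 20.6%.

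**Figure D3:**
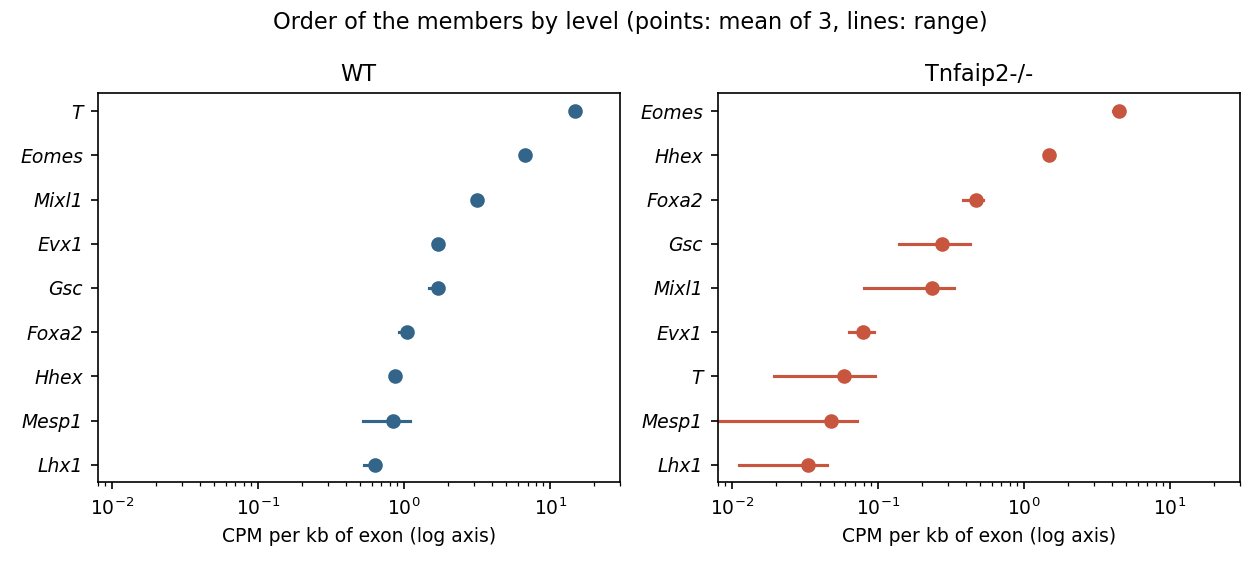
Members ordered by mean level in CPM per kb of exon (log axis) in WT and Tnfaip2-/- EBs; points are means of 3 samples and lines run from the lowest to the highest sample. T leads in WT at 14.8 and Eomes in Tnfaip2-/- at 4.48; the lower end for Mesp1 in Tnfaip2-/- is 0 and is drawn at the axis edge.

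The paralogues of the members had low counts and did not share a direction. Of the 9 paralogues listed, 5 were tested, of which 1 was lower and 2 were higher, with a median log2 fold change of 0.14. For this list and those below, the shares over all genes tested were 33.7% lower and 34.0% higher. Mesp2, the relative of Mesp1 that acts in somite segmentation, had 24, 27 and 29 counts in WT and 25, 32 and 29 in knockout EBs, and its groups overlapped. Lhx5 was lower (53, 40 and 57 against 33, 29 and 26 counts, log2 fold change -0.73). Foxa1, a forkhead factor of endoderm, was higher, with 16, 9 and 7 counts in WT and 39, 40 and 42 in knockout EBs (log2 fold change 1.94, adjusted p = 1.11e-08 in edgeR's quasi-likelihood test). Gsc2 was also higher, at 13, 14 and 16 against 29, 26 and 27 counts (log2 fold change 0.96). Foxa3 had 19, 26 and 27 against 25, 30 and 20 counts, with overlap. Below the filter, Tbr1 had 1, 1 and 3 against 7, 4 and 10 counts and Tbx21 had 8, 1 and 2 against 4, 14 and 10. Tbx19 and Evx2 never exceeded 2 counts in a sample.

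Genes of the signals that induce the streak moved in both directions. Of 24 ligands, receptors and effectors of the Nodal, Wnt, BMP and FGF pathways, 15 were lower and 8 higher, with a median log2 fold change of -0.23 and a summed level of 2381 ± 24.2 CPM in WT and 2346 ± 11 CPM in knockout EBs (SD, n = 3), most of it from Ctnnb1, Tdgf1 and other abundant genes. Fgf8, an FGF ligand of the streak, had 325, 342 and 324 counts in WT EBs and 14, 12 and 11 in Tnfaip2-/- EBs (log2 fold change -4.69). Wnt3, the ligand required for streak formation, had 114, 132 and 110 against 24, 15 and 24 counts (log2 fold change -2.45). Both were far below WT in every knockout sample. Nodal fell less, from 72.6 to 52.5 CPM in the mean (log2 fold change -0.49). Against a fold change of 1.5, 4 genes of the list were lower and 1 was higher. Lef1, a transcriptional effector of Wnt signalling, fell from 51.8 to 27.2 CPM in the mean, with 13.7% of its exon bases shared with an antisense gene. Bmp4, in contrast, rose from 5.19 ± 0.425 to 12.4 ± 0.855 CPM (SD, n = 3; log2 fold change 1.22).

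Of 8 antagonists and feedback genes, 7 were tested, 4 were lower and 2 were higher, with a median log2 fold change of -0.34. The Wnt targets Sp5 (166, 136 and 158 against 19, 23 and 22 counts) and Axin2 (453, 448 and 441 against 91, 99 and 124 counts) had log2 fold changes of -2.80 and -2.06. Dkk1, a Wnt antagonist, fell from 4.22 to 1.8 CPM. Cer1, below the filter, had 18, 10 and 11 counts in WT and 0, 1 and 1 in knockout EBs. Lefty1, an inhibitor of Nodal, was higher, at 228 ± 4.71 CPM in WT and 329.6 ± 7.74 CPM in knockout EBs (SD, n = 3).

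Nascent mesoderm genes were mostly lower. Of 25 listed genes 19 were tested, of which 16 were lower and 1 higher, with a median log2 fold change of -2.46. Their summed level was 85.1, 84.2 and 79.4 CPM in WT EBs and 24, 24.7 and 24.9 CPM in Tnfaip2-/- EBs, with Dll1 the most abundant when averaged over all 6 samples (10.7 against 3.35 CPM), although Wnt8a was higher in WT EBs (12.3 CPM) and Dll3 in knockout EBs (4.67 CPM). Nkx1-2, a homeobox gene of the caudal embryo, had 199, 208 and 198 against 4, 3 and 2 counts, a ratio of 64.3 with a counting interval of 33.6 to 141. Wnt8a had 266, 265 and 324 against 9, 6 and 6 counts (log2 fold change -5.29). Aplnr, a receptor of nascent mesoderm, had 83, 84 and 82 against 5, 4 and 1 counts. Cdx2, a caudal homeobox factor, had 42, 37 and 28 against 1, 2 and 0 counts, a ratio of 34.1 with a counting interval of 11.4 to 168 that covers counting error only. Antisense genes share 20.5% of the exon bases of Dll1 and 16.6% of those of Nkx1-2, so part of these counts is uncertain.

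Definitive endoderm and node genes did not move in a shared direction. Of 13 listed genes 11 were tested, of which 4 were higher and 1 lower, with a median log2 fold change of 0.14. Foxa1, 1 of the 4, and Foxa3 are also counted among the paralogues, as Mesp2 is in both the nascent mesoderm genes and the paralogues. The higher genes included Foxj1, the forkhead factor of motile cilia (44, 35 and 34 against 311, 276 and 264 counts, log2 fold change 2.95), and Prdm1, at 3.88 ± 0.207 against 15 ± 0.27 CPM (SD, n = 3; log2 fold change 1.92). Trh, the most abundant gene of the list, fell from 781 ± 18.2 to 149 ± 1.63 CPM (SD, n = 3). It set the list's summed level, which was 810.1, 794 and 829 CPM in WT and 206, 202 and 204 CPM in knockout EBs. Sox17 was also higher, at 2.52 CPM in WT and 3.49 CPM in knockout EBs in the mean (log2 fold change 0.45). Its call was lost with DESeq2 and against a fold change of 1.5. Of the list, 6 genes were not called, among them Cxcr4 (log2 fold change -0.18), Gata4 (-0.04) and Gata6 (0.14). Noto, a defining marker of the node, had at most 1 count in any sample, and Shh had 3, 3 and 4 counts in WT and 0 in each knockout sample.

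**Figure D4:**
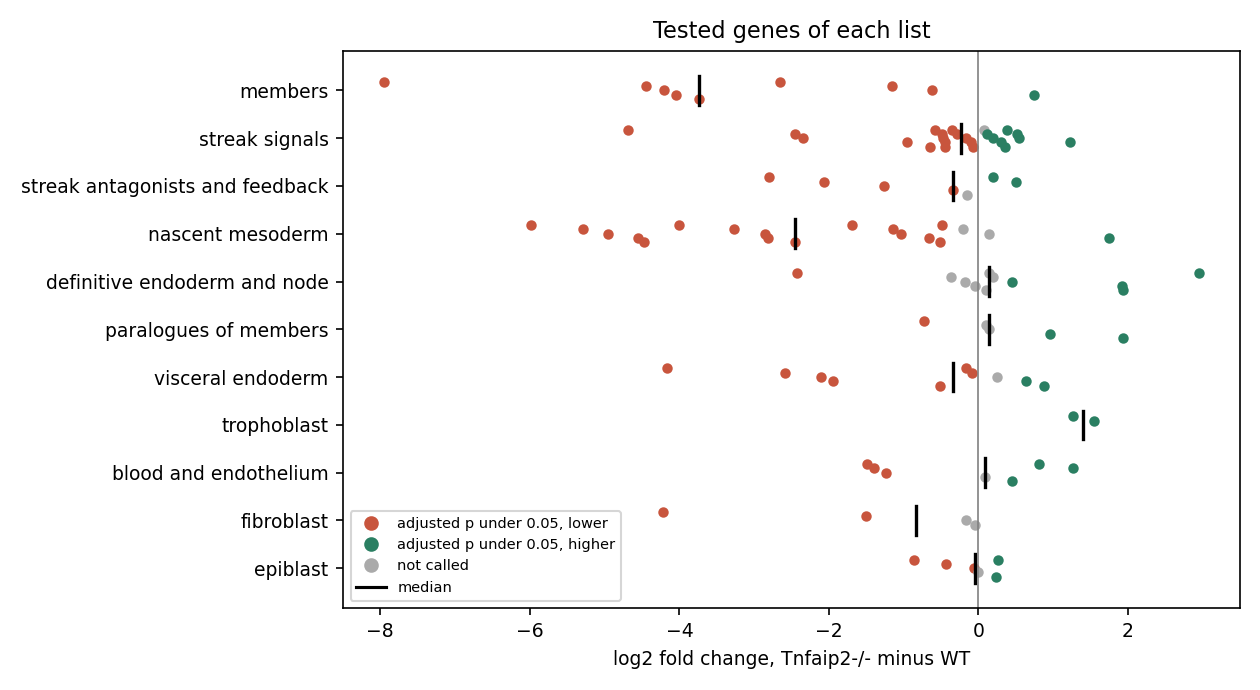
Log2 fold change, Tnfaip2-/- minus WT, of the tested genes of each list, coloured by call at an adjusted p of 0.05, with the list's median as a black line. The medians are -3.74 for the members, -2.46 for nascent mesoderm and 0.14 for definitive endoderm and node.

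The EBs could also hold other cell types that use some members. Of 12 visceral endoderm genes 10 were tested, of which 7 were lower and 2 higher, with a summed level of 133, 133 and 128 CPM in WT and 116, 111 and 111 CPM in knockout EBs. Cubn and Dab2 made up most of that level, and Dab2 averaged 45.4 CPM in WT and 41.1 CPM in knockout EBs. The largest fall was that of Afp (21, 16 and 25 against 1, 0 and 2 counts, log2 fold change -4.17). Its ratio of summed counts was 19.8, with a counting interval of 6.45 to 98.4. Apoa1 (72, 70 and 70 against 14, 7 and 13 counts), Apob (162, 202 and 181 against 50, 35 and 39 counts) and Ttr (110, 114 and 122 against 33, 29 and 25 counts) were lower, whereas Rbp4 was higher (71, 44 and 62 against 107, 112 and 98 counts). Cubn, the most abundant, overlapped between groups at 50.8 and 48.5 CPM in the mean, and its call was lost under most alternatives. Apoa4 had no sample above 3 counts. The part of visceral endoderm in the members' values was not tested.

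Of 6 epiblast genes, 3 were lower and 2 higher, with a median log2 fold change of -0.04. The smallest fall, that of Utf1 (-0.06), had groups that overlapped, and 2 or fewer genes were lower under most alternatives. Their summed level was 1869, 1869.9 and 1854 CPM in WT and 1629, 1631 and 1636 CPM in knockout EBs. Pou5f1, the most abundant and sharing 14.1% of its exon bases with an antisense gene, fell from 752 ± 5.89 to 423 ± 5.82 CPM and Fgf5 from 37.2 ± 1.33 to 28.2 ± 0.618 CPM, whereas Nanog rose from 255 ± 8.69 to 312 ± 8 CPM and Sox2 from 278 ± 4.27 to 332 ± 6.98 CPM (SD, n = 3). The epiblast genes thus went in both directions, and their part in the members' values was not tested.

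Trophoblast genes were scarce. Of 7 listed, 2 were tested and both were higher, Ascl2 (35, 36 and 42 against 116, 106 and 100 counts) and Krt7 (13, 9 and 18 against 32, 33 and 29 counts). Ascl2, the most abundant, is also known outside the placenta. The defining genes Tpbpa and Prl3d1 had 0 counts in all 6 samples, and the summed level was 2.83, 2.36 and 2.81 against 7.34, 6.8 and 6.87 CPM.

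Of 12 blood and endothelium genes 7 were tested, of which 3 were lower and 3 higher. Lmo2 (33, 27 and 49 against 9, 13 and 18 counts) and Etv2 (34, 37 and 51 against 17, 11 and 22 counts), factors of early blood and vessel precursors, were lower. Pecam1, the most abundant and also known in pluripotent mouse cells, rose from 23.5 to 32.9 CPM, and Tek rose from 1.75 to 3.12 CPM. The list summed to 31.3, 32.1 and 31.2 CPM in WT and 37, 40.2 and 43.5 CPM in knockout EBs, and the globins Hbb-bh1 and Hba-x had at most 1 count in a sample. Of 7 fibroblast genes 4 were tested and 2 were lower, Col1a2 among them (38, 36 and 43 against 9, 14 and 17 counts). Thy1, the most abundant, overlapped between groups. The fibroblast sum was 8.53, 9.96 and 8.53 against 5.87, 6.34 and 6.91 CPM, with Lum at 3 counts or fewer in each sample.

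Genes most like each member were found by the Euclidean distance over the 6 samples of log2(CPM + 0.1), centred on each gene's own mean, among the 16197 tested genes that averaged 1 CPM or more in a genotype. Nearest to T was Mest (distance 1.49), with 3091, 3052 and 3243 counts in WT EBs and 7, 9 and 8 in Tnfaip2-/- EBs. Its log2 fold change of -8.55 was the lowest value over all genes tested. Mest is an imprinted gene known from mesoderm, and an antisense gene, Copg2, shares 23.1% of its exon bases. Whether its fall goes with mesoderm was not tested, and an effect of the clone cannot be told apart. Then came Nkx1-2 (2.52), Wnt8a (2.94), Zic1 (3.13) and Fgf8 (3.5), all high in every WT sample and low in every knockout sample. Nearest to Mixl1 was Enpp2 (0.765), to Gsc Slc44a5 (0.527), to Mesp1 Rfx4 (0.619), to Lhx1 Aplnr (0.599) and to Evx1 1700097N02Rik (0.414), whose exons share 24.5% of their bases with Dnah8 on the opposite strand and 10.7% with Glo1 on the same strand, so its counts are uncertain. Nearest to Eomes was Arhgef19 (0.0513), to Hhex Rpl39l (0.0598) and to Foxa2 Cers1 (0.195). In a comparison of WT with knockout samples, this distance mostly measures how alike the fold changes of genes are. Small distances for members that moved little follow from that, and expression in the same cells was not tested. Cers1 shares 42.5% of its exon bases with Gdf1 on the same strand, and the counts of the pair are uncertain.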

How the data were processed

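RNA of 6 EB samples was sequenced from TruSeq libraries, which do not mark strand. The submitters' processing notes name bcl2fastq (in a version other than the study's methods give for EBs), TopHat2 2.1.0, featureCounts 1.5.0 and the build GRCm38. The authors deposited counts of uniquely mapped reads per gene, without normalization. Whether counting used strand is not given in the sources used here. CPM were computed here from these counts and column totals. Exon lengths and positions came from GENCODE M21.

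Genotypes were compared with edgeR 4.0.16 (R 4.3.3) by its quasi-likelihood F test with TMM factors, the default expression filter (minimum count 10, minimum total 15) and Benjamini-Hochberg adjustment over 17849 genes, with a threshold of 0.05. The procedure was tested on simulated data. SE were derived from the F statistic. With few counts this SE can be as narrow as counting error or narrower, so it is given for Eomes only, and exact binomial 95% intervals of the count ratio for the other members. Intervals and the floor of 3 counts per library cover counting error only.

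The members and gene lists were chosen with earlier results of these data known. Genes named by rule were all members, Tnfaip2 and the paralogues. From each list, up to 4 genes with the largest changes were named, among called, non-overlapping genes averaging 1 CPM or more. Also named were the most abundant gene of each cell type list and genes whose exons overlap a member. The genes nearest to each member (5 for T) were named too. Some other genes, among them Utf1, Dll3, Shh, Noto, Tpbpa, Lum, Afp, Dab2, Cer1, Sox17, Cxcr4, Gata4, Gata6 and Nodal, are given outside this rule. Alternatives were DESeq2 1.42.0, other scalings and filters, a legacy fit, the replicate block, a test against a fold change of 1.5 and leaving out each sample.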

Additional observations from a re-analysis of the deposited data

How the results depend on the processing

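Of 125 values of the members' log2 fold changes under the alternatives, 123 kept direction and call. The exceptions were Eomes (-0.62) and Hhex (0.74), which did not pass the test against a fold change of 1.5, a stricter question. Under that test 7 members were lower and 0 higher, and the lists had 4 lower and 1 higher streak signals, 0 higher antagonists, 0 lower and 1 higher paralogues, 4 lower and 1 higher visceral endoderm genes, 0 higher blood and endothelium genes, and 1 lower and 0 higher epiblast genes, while 1183 genes were lower and 1615 higher over the table. With at least 1 CPM in 3 samples, Mesp1 was not tested and has no value, which left 7 lower members, 0 nascent mesoderm genes were higher and 1 fibroblast gene was lower. Without the filter, 2 definitive endoderm and node genes were lower, 4 paralogues were higher and 4 fibroblast genes were lower. DESeq2 also gave 2 lower definitive endoderm and node genes. Foxa3, which was never called, changed sign when a replicate was left out (-0.05 without WT replicate 1, and -0.07 to 0.22 over all samples left out).

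With each sample left out in turn, the log2 fold change of T ranged from -8.49 to -7.56 and that of Mesp1 from -4.44 to -3.50. Among the genes named by rule that were run under the alternatives, the widest ranges were those of Cdx2 (-5.82 to -4.44) and 1700097N02Rik (-6.18 to -4.80). In both genes the ends came from leaving out a knockout sample. Replicate numbers did not pair the samples: the deviations of same-numbered samples correlated at -0.0731, -0.0626 and -0.0773. With the replicate number as a block, 8 members were lower and 1 higher, and 11841 genes passed. Knockout counts of T, Mesp1 and Lhx1 are at or near the floor, so the depth limits the size of these changes.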

Other observations

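Relatives of the members in the T-box, LIM-homeobox and forkhead families were picked by symbol after values were seen, and are given as a description. Over all genes tested, 33.7% were lower and 34.0% higher, the shares to set beside each family. Of 17 T-box genes, members included, 7 were tested, of which 4 were lower and 2 higher. The tally depended on the setting, with 3 lower and 0 higher with DESeq2, 4 lower and 5 higher without the filter, and 3 lower and 4 higher without Tnfaip2-/- replicate 1. Besides T and Eomes, Tbx3 was lower, with 742, 755 and 761 counts in WT EBs and 285, 259 and 261 in knockout EBs (log2 fold change -1.45), and Tbx6 was lower (45, 26 and 42 against 25, 23 and 29 counts) with groups that overlapped. Tbx2 (15, 12 and 9 against 20, 26 and 18 counts) and Tbx4 (10, 7 and 5 against 20, 13 and 16 counts) were higher. The calls of Tbx2, Tbx4 and Tbx6 were lost with DESeq2 and when tested against a fold change of 1.5, and that of Tbx2 also without WT replicate 3 or Tnfaip2-/- replicate 2. That of Tbx6 was lost without WT replicate 1 or 3 or Tnfaip2-/- replicate 1 or 2.

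Of 12 LIM-homeobox genes, 6 were tested, of which 3 were lower (Lhx1, Lhx5 and Lhx2) and 2 higher. Isl2 had 3, 3 and 4 counts in WT EBs and 24, 33 and 32 in knockout EBs, and Lmx1b had 15, 13 and 16 against 33, 33 and 26 counts. Lhx2 had 53, 56 and 58 against 38, 52 and 30 counts, with groups that overlapped in CPM. The call of Lhx2 was lost with DESeq2, against a fold change of 1.5, and without WT replicate 2 or 3 or Tnfaip2-/- replicate 1 or 3. That of Lhx5 was also lost against a fold change of 1.5, where 1 LIM-homeobox gene was lower and 2 were higher.

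Of 44 forkhead genes, Foxa2 included, 25 were tested, of which 13 were lower and 8 higher, with a median log2 fold change of -0.11. Against a fold change of 1.5, 9 were lower and 3 higher.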
